A study of Mus musculus with 15 samples.

Results

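Complement components and receptors were followed in mouse bone marrow-derived macrophages (BMDMs) as 9 genes. They were the 3 chains of C1q (C1qa, C1qb and C1qc), the proteins C3 and C4 (C3 and C4b), factor B (Cfb), properdin (Cfp) and the receptors of the fragments C3a and C5a (C3ar1 and C5ar1). The members were the rows of the count matrix whose Ensembl identifiers map to these 9 symbols, out of 53465 genes in the matrix, and 8 of the 9 passed the filter on low counts that left 13938 genes for testing. BMDMs were grown from the marrow of Arg1-YFP+/+ mice (a reporter knocked in at the arginase 1 gene, carried by all 5 groups), aged 8 to 12 weeks according to the methods for the macrophage cultures, with M-CSF, the growth factor that drives marrow cells toward macrophages. They were then left without further cytokine (control) or kept for 24 h with IL-4 at 10 ng/ml, with the same IL-4 and IL-6 at 40 ng/ml (IL-4/IL-6), with IL-13 at 40 ng/ml, or with the same IL-13 and IL-6 at 40 ng/ml (IL-13/IL-6). Each of the 5 groups had 3 RNA-seq libraries, 15 in all. No group received IL-6 alone, so an effect of IL-6 could be measured only beside IL-4 or IL-13, which were given at different doses. The labels do not say whether the replicates of a group came from separate mice or cultures, and the p-values measure the spread between these libraries only.

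Complement is a cascade of plasma and local proteins that marks targets for uptake by phagocytes and releases chemoattractant fragments. C1q, built from A, B and C chains, recognizes immune complexes and dying cells and starts the classical pathway, in which C4 and then C3 are cleaved and become attached to the target. Factor B and properdin belong to the alternative pathway, where factor B provides the protease of the C3 convertase and properdin stabilizes that convertase. C3a and C5a, the small fragments released on the way, act on G protein-coupled receptors, of which C3ar1 and C5ar1 encode the main ones on myeloid cells. Macrophages are known as a main source of C1q and properdin, whereas the liver makes most of the circulating C3, C4 and factor B.

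The libraries held 17001352 to 18918686 counts each, so that the precision of most members was set by the spread between libraries and only for C4b and Cfb by counting. Common biological coefficients of variation were 4.49% in control, 4.54% with IL-4, 14.9% with IL-4/IL-6, 10.9% with IL-13 and 7.39% with IL-13/IL-6. One library of IL-4/IL-6 (replicate 2) and one of IL-13 (replicate 1) stood apart from the others of their groups, with a mean chi-square per gene of 15.8 to 43.0 against their fellow libraries where all other pairs gave 2.6 to 7.44. Counts without these libraries are given with the results. The labels were checked on known responses: Arg1 averaged 2.97 CPM (counts scaled to library size) in control and 929.2 to 15948.1 in the treated groups, and Socs3, a target of IL-6 signaling, averaged 106.9 and 128.7 CPM in the IL-6 groups and 1.27 to 8.73 in the others. These checks do not tell the IL-4 labels from the IL-13 labels. Of the other genes chosen for the check, Retnla and Mrc1 averaged more in every treated group than in control. Chil3 averaged 176.9 CPM in control and 190.1 with IL-13, in overlapping libraries, and 354.0 to 1541.5 in the other treated groups. Il4ra averaged 1562.8 and 2312.2 CPM in the IL-6 groups and 35.7 to 90.3 in the others. All 8 macrophage markers were detected in all 5 groups, but their levels differed between them. Itgam also counts among the further complement genes. Their summed level was 18934.7 to 21113.5 CPM in the control libraries, 14308.5 to 14779.7 with IL-4, 10899.9 to 12703.6 with IL-4/IL-6, 17050.9 to 19799.8 with IL-13 and 13928.2 to 14819.7 with IL-13/IL-6. Against control 1 marker was higher and 5 were lower with IL-4, 3 and 3 with IL-13, 3 and 5 with IL-4/IL-6, and 4 and 4 with IL-13/IL-6. Adding IL-6 raised 3 and lowered 5 beside IL-4 and raised 3 and lowered 2 beside IL-13, and 4 were higher with IL-13 than with IL-4. Lyz2, most of the sum, averaged 14924.1 CPM in control and 6852.1 with IL-4/IL-6, Cd14 averaged 291.7 and 46.5, and Mertk averaged 142.5 CPM in control and 8.27 to 17.9 in the treated groups. The part of these differences in the results for the members was not tested.

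Markers of other marrow cells separated control from all treated groups and accompany every comparison with control. The summed level of 11 granulocyte markers was 655.3 to 755.4 CPM in the control libraries, 39.3 to 45.0 with IL-4, 116.8 to 138.0 with IL-4/IL-6, 29.0 to 31.5 with IL-13 and 53.3 to 64.3 with IL-13/IL-6, and most of what remained in the treated groups was Csf3r. The defining granulocyte genes Ltf, Ngp and S100a9 averaged 81.8, 130.4 and 156.4 CPM in control and 0.181 CPM or less in every treated group, and Ly6g was at 0 in all treated libraries. Of the 11 markers 10 were tested, and all 10 were lower than control in each treated group. Of 9 stromal, 6 dendritic cell and 7 basophil, mast cell and eosinophil markers, the sums reached 16.9 to 29.9 CPM in control libraries and stayed at 1.18 or less in treated ones. The 4 B cell markers summed to 10.2 to 10.8 CPM in control and 0.567 to 1.55 in treated libraries. T cell and erythroid sums stayed below 1 CPM in all libraries, and the megakaryocyte genes Ppbp and Itga2b averaged 165.9 and 114.0 CPM in control and 1.47 to 4.16 in treated groups, while Pf4 averaged 97.4 CPM in control and 68.7 to 390.1 in treated groups. The part of these cells in differences from control was not tested. In bulk RNA fewer cells of a type and less RNA per cell cannot be told apart.

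Levels of different members can be compared per gene length, for which the deposited FPKM (counts scaled to gene length and library size) were used. C1qb and then C1qc were the highest members in all 5 groups, and C1qa lay in the range of Cfp and C3ar1 in control. C1qb ranged from 965.4 ± 132.5 FPKM (SD, n = 3) with IL-4/IL-6 to 1458.4 ± 86.9 with IL-13/IL-6, C1qc from 332.1 ± 49.4 to 555.3 ± 41.8 between the same groups and C1qa from 176.1 ± 21.7 in control to 395.0 ± 38.7 with IL-13/IL-6. Cfp lay between 153.5 ± 11.4 and 249.7 ± 30.6 FPKM, C3ar1 between 185.5 ± 11.2 and 294.8 ± 5.13 and C5ar1 between 71.0 ± 0.719 and 220.7 ± 7.71. C3 stayed far below these genes at 6.80 ± 1.57 to 11.8 ± 0.923 FPKM, and C4b at 0.0403 ± 0.0188 to 1.06 ± 0.163.

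**Figure D1:**
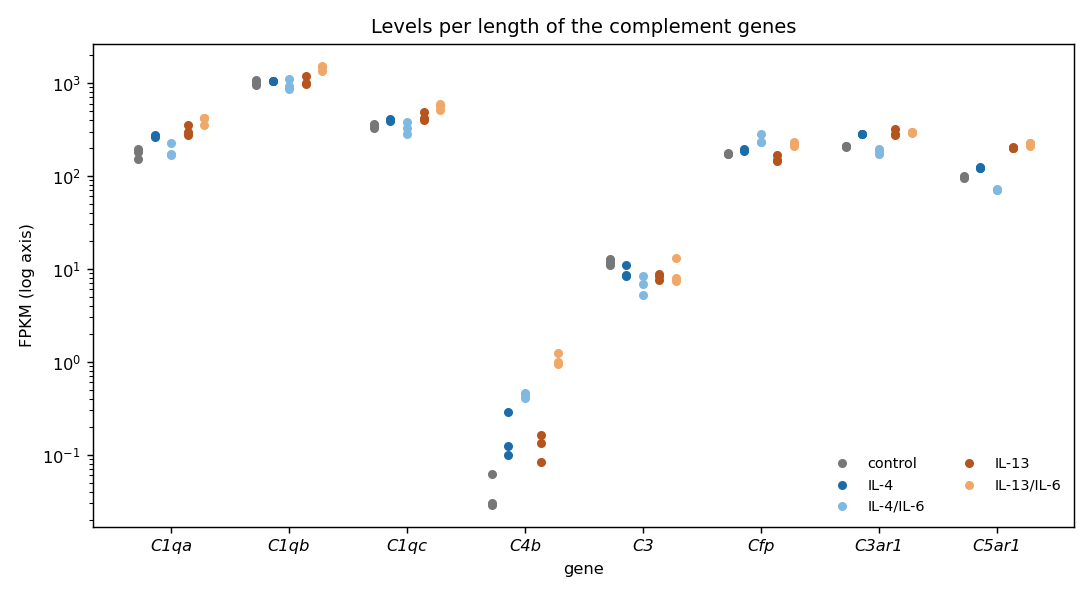
FPKM of the 8 measurable complement genes (log axis), one point per library and one color per group. C1qb is the highest gene in every library, C3 lies at 5.19 to 13.0 FPKM and C4b is at 1.24 FPKM or less.

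Cfb, which encodes the protease of the alternative pathway, was at the limit of detection. It had 1 count in 1 IL-4/IL-6 library and 1 count in 1 IL-13/IL-6 library and 0 in the other 13, did not pass the filter and was not tested. A library with 0 counts allows up to 3 counts by counting error alone. In the annotation of GRCm38, Cfb (chromosome 17, 34856374 to 34862518, minus strand) shares 2246 exon bases, 79.5% of its own, with the read-through gene Gm20547 on the same strand, which had 0 counts in all libraries. How the counting treated reads in shared exons is not given in the sources used here, so that a low Cfb count here does not show a low Cfb RNA.

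The 3 C1q genes lie side by side on the minus strand of chromosome 4 within 18.7 kb (GRCm38): C1qb at 136880129 to 136886187, C1qc at 136889804 to 136893065 and C1qa at 136895917 to 136898803. The promoters of C1qb and C1qc are shown from 250 bases before to 50 bases after the annotated start (RefSeq, GRCm38.p6, 5′ to 3′ along the gene). They were chosen because the log2 levels of these neighboring genes had a Pearson correlation of 0.94 over 15 libraries. Their balance still differed, with C1qb over C1qc in FPKM at 2.91 ± 0.0176 (SD, n = 3) in control and 2.43 ± 0.0496 with IL-13. The C1qa promoter was not among those available. Capitals mark a match to a searched motif.
C1qb promoter, chr4:136886151-136886450, minus strand: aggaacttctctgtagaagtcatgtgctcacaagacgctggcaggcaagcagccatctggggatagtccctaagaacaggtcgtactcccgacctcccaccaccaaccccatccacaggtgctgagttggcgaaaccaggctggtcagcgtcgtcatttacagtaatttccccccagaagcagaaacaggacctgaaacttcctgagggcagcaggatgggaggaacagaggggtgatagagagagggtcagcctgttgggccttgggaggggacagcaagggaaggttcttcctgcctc
C1qc promoter, chr4:136892865-136893164, minus strand: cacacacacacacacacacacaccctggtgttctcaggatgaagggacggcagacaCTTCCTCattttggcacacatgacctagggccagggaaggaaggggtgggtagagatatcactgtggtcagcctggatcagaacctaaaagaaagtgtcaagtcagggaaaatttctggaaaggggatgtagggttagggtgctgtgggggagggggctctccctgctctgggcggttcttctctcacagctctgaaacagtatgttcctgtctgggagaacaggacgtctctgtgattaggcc

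Promoters of 6 members (C1qb, C1qc, C3, Cfp, C3ar1 and C5ar1) were in the table, and 5 short motifs were searched on both strands: the STAT element TTCNNNGAA and its form with 1 more N, the C/EBP element TTGCNNAA, the PU.1 core GAGGAAG and the MAF half-site TGCTGAC. The search found GAGGAAG once, as its reverse complement CTTCCTC in C1qc, from 194 to 188 bases before the start, and TTGCNNAA once, in C3 from 45 to 38 bases before the start. The other motifs had no match in these windows. Of all 32851 promoters in the table, 8.3% hold TTCNNNGAA, 6.95% its longer form, 10.8% TTGCNNAA, 13.6% GAGGAAG and 4.67% TGCTGAC. These are matches of letters and not measured binding sites.

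C1qa, the A chain of C1q, was the chain with the largest fold changes against control. Its normalized levels, in CPM corrected by the TMM factor of each library, were 151.6, 197.3 and 177.7 CPM in control, 276.7, 284.8 and 268.1 with IL-4, 188.4, 264.2 and 177.0 with IL-4/IL-6, 358.9, 301.2 and 280.3 with IL-13, and 449.6, 369.2 and 444.1 with IL-13/IL-6. All treated libraries except those with IL-4/IL-6 were above all control libraries, and the IL-4 and IL-13 libraries overlapped. C1qa rose 1.58-fold with IL-4 (log2 fold change 0.66 ± 0.135 standard error, adjusted p = 0.000388) and 1.79-fold with IL-13 (0.84 ± 0.135, adjusted p = 4.52e-05). The p-values here and in the following are from the quasi-likelihood test of edgeR, adjusted by the Benjamini-Hochberg method over all 13938 genes, and a gene was called when its adjusted p was under 0.05.

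Adding IL-6 moved C1qa in opposite directions. It fell by 0.40 ± 0.134 on the log2 scale when IL-6 was added to IL-4 (adjusted p = 0.0258) and rose by 0.43 ± 0.134 when IL-6 was added to IL-13 (adjusted p = 0.0254). The libraries of the compared groups did not overlap in either case. The fall was called in 3 of 6 fits that left out 1 library (adjusted p = 0.0535 without IL-4 replicate 2, 0.0798 without IL-4/IL-6 replicate 1 and 0.083 without IL-4/IL-6 replicate 3). Without IL-4/IL-6 replicate 2, which stood apart, the log2 fold change was -0.61 (adjusted p = 0.000148). The rise was called in 2 of 6, and its adjusted p was 0.0883 and 0.126 without IL-13 replicates 2 and 3, and 0.0999 and 0.0951 without IL-13/IL-6 replicates 1 and 3. The IL-4/IL-6 level overlapped control (0.26 ± 0.135, adjusted p = 0.0948) and was called higher without control replicate 2, IL-4/IL-6 replicate 1 or IL-4/IL-6 replicate 3 (adjusted p = 0.0499, 0.0472 and 0.0236). Without IL-4/IL-6 replicate 2 this difference from control was 0.09 (adjusted p = 0.488), and without both libraries that stood apart it was 0.09 (adjusted p = 0.364). In IL-13/IL-6 macrophages C1qa was 2.40-fold above control (1.26 ± 0.136, adjusted p = 3.67e-07) and 2.01-fold above IL-4/IL-6 (1.00 ± 0.135, adjusted p = 2.1e-05).

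C1qb, the B chain, was the most abundant member and showed one clear step. It measured 994.1, 1129.6 and 1061.6 CPM in control, 1128.9, 1127.0 and 1139.9 with IL-4, 1051.1, 1350.4 and 953.9 with IL-4/IL-6, 1283.7, 1027.1 and 1048.9 with IL-13, and 1709.5, 1499.2 and 1667.8 with IL-13/IL-6. The IL-13/IL-6 libraries were above all others, and the ranges of neighboring groups among the other 4 overlapped. Adding IL-6 to IL-13 raised C1qb 1.45-fold (0.54 ± 0.108, adjusted p = 0.00105), while the log2 fold changes were 0.09 ± 0.108 with IL-4, 0.08 ± 0.108 with IL-13 and -0.02 ± 0.108 when IL-6 was added to IL-4, and these were not called (adjusted p = 0.461, 0.555 and 0.92).

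C1qc, the C chain, was called higher with IL-13 and further with IL-13/IL-6, while its rise with IL-4 was called only in some settings. Its levels were 606.6, 683.9 and 650.4 CPM in control, 745.1, 774.9 and 775.9 with IL-4, 665.0, 823.6 and 560.7 with IL-4/IL-6, 920.4, 749.9 and 783.4 with IL-13, and 1135.8, 993.7 and 1166.3 with IL-13/IL-6. It rose 1.26-fold with IL-13 (0.34 ± 0.111, adjusted p = 0.0143) and again 1.34-fold when IL-6 was added to IL-13 (0.43 ± 0.110, adjusted p = 0.00785). The rise with IL-13 was not called without control replicate 1 (0.30, adjusted p = 0.0547). The change with IL-4 was 0.24 ± 0.110 and not called (adjusted p = 0.0617), although the IL-4 libraries lay above all control libraries, and it was called without IL-4 replicate 1 (0.30, adjusted p = 0.0459). By edgeR it was also called with upper-quartile normalization (0.26, adjusted p = 0.0467) and with no filter (0.32, adjusted p = 4.73e-05). A fit of control and IL-4 alone called it too (0.28, adjusted p = 1.52e-07). From IL-4 to IL-13 the change was 0.10 ± 0.110 and not called (adjusted p = 0.611). The change from IL-4 to IL-4/IL-6 was -0.16 ± 0.110 (adjusted p = 0.261), and without IL-4/IL-6 replicate 2, the library that stood apart, C1qc fell by 0.33 (adjusted p = 0.0055).

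Together the 3 C1q genes took 0.197% ± 0.012 (SD, n = 3) of all counts in control, 0.220% ± 0.0023 with IL-4, 0.189% ± 0.0272 with IL-4/IL-6, 0.230% ± 0.0249 with IL-13 and 0.307% ± 0.0212 with IL-13/IL-6. These are shares of the raw library totals, without the TMM factor. With that factor, the log2 fold changes from control to IL-4/IL-6 were 0.26 for C1qa, 0.08 for C1qb and 0.08 for C1qc, none of them called. The balance of the chains also shifted, with C1qb over C1qa in FPKM at 5.82 ± 0.409 in control, 3.92 ± 0.142 with IL-4, 5.12 ± 0.224 with IL-4/IL-6, 3.42 ± 0.159 with IL-13 and 3.70 ± 0.157 with IL-13/IL-6. The ratios of the control libraries (5.47 to 6.27) lay above those of every treated group, and the ratios with IL-4/IL-6 (4.89 to 5.33) lay above those with IL-4 (3.78 to 4.06). Across the 15 libraries the log2 levels of C1qa and C1qc had a Pearson correlation of 0.951 and those of C1qb and C1qc of 0.94, as a description of libraries that share groups.

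**Figure D2:**
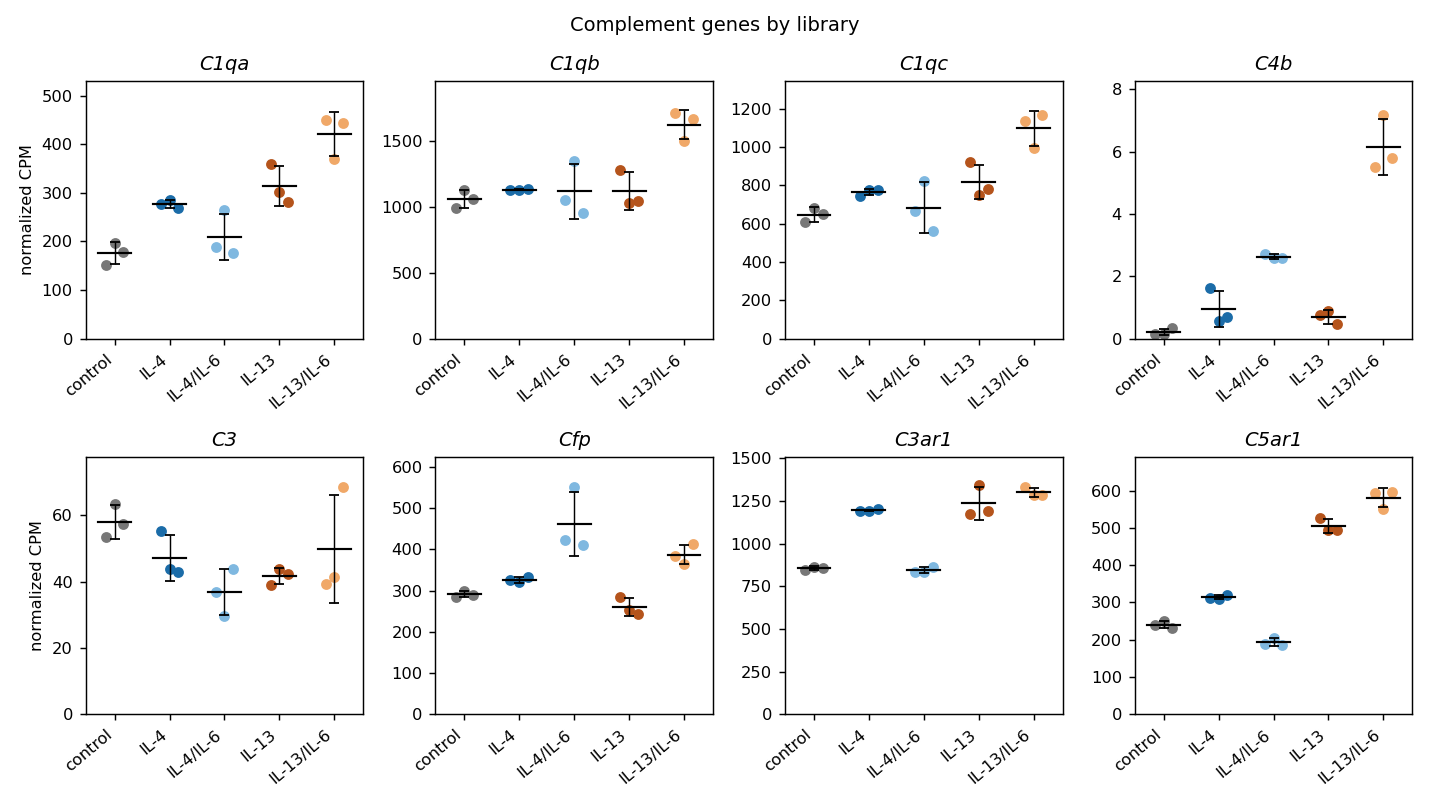
Normalized CPM (linear axes from 0) of 8 complement genes in 15 libraries, with points for libraries, horizontal lines for group means and bars for SD (n = 3). The IL-13/IL-6 libraries are the highest for C1qa, C1qb, C1qc, C4b and C5ar1, and C5ar1 separates all 5 groups.

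C4b encodes C4, the protein cleaved by activated C1 (chromosome 17, 34728380 to 34743882, minus strand), and had the largest fold changes of the members against control and on adding IL-6, on very few counts. The control libraries held 3, 3 and 6 counts, those with IL-4 30, 10 and 13, with IL-4/IL-6 48, 44 and 45, with IL-13 14, 16 and 9, and with IL-13/IL-6 95, 132 and 104. All treated libraries were above all control libraries, and both IL-6 groups were above both groups without IL-6. Adding IL-6 raised C4b 2.73-fold beside IL-4 (log2 fold change 1.45 ± 0.315, adjusted p = 0.00128) and 8.71-fold beside IL-13 (3.12 ± 0.308, adjusted p = 4.74e-07). Against control, C4b was 4.30-fold higher with IL-4 (2.1 ± 0.476, adjusted p = 0.000893) and 3.14-fold higher with IL-13 (1.65 ± 0.503, adjusted p = 0.00939), but these folds rest on 3 to 6 control counts. The difference between IL-13 and control was not called by limma on log2(FPKM + 1), a scale that understates low genes (0.11, adjusted p = 0.139). Even at its highest, with IL-13/IL-6, C4b reached 6.15 ± 0.889 CPM. The paralog C4a had 10 to 28 counts in all libraries, was called in none of the 9 comparisons, and shares 34.6% of the 50-base words of the C4b transcripts, so that reads of the pair could have been divided or lost in counting.

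C3, the central protein of the cascade (chromosome 17, 57203970 to 57228136, minus strand), had its highest mean in control. Its levels were 53.4, 63.4 and 57.3 CPM in control, 55.3, 43.8 and 42.8 with IL-4, 37.0, 29.8 and 43.8 with IL-4/IL-6, 39.0, 43.8 and 42.2 with IL-13, and 39.4, 41.5 and 68.7 with IL-13/IL-6. Replicate 3 of IL-13/IL-6 was the highest of all libraries, and all neighboring groups in the order of means overlapped. C3 fell by 0.65 ± 0.177 on the log2 scale from control to IL-4/IL-6 (adjusted p = 0.00324) and by 0.48 ± 0.175 from control to IL-13 (adjusted p = 0.0269). The second fall was called in 2 of 6 fits without 1 library, and its adjusted p was 0.104 and 0.0574 without control replicates 2 and 3, and 0.103 and 0.0621 without IL-13 replicates 1 and 3. From control to IL-13/IL-6 the change was -0.22 ± 0.174 and not called (adjusted p = 0.286), and without IL-13/IL-6 replicate 3 it was -0.49 (adjusted p = 0.00832). Neither addition of IL-6 was called for C3, with -0.36 ± 0.178 beside IL-4 (adjusted p = 0.122) and 0.26 ± 0.176 beside IL-13 (adjusted p = 0.327). Without IL-4/IL-6 replicate 3 the first of these was -0.52 (adjusted p = 0.0348), and without IL-13/IL-6 replicate 3 the other was -0.05. In an edgeR fit with no filter on low counts both were called, at -0.38 (adjusted p = 0.000655) and 0.28 (adjusted p = 0.0333). That fit also called the difference between these effects (0.66, adjusted p = 9.16e-05).

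Cfp encodes properdin, the stabilizer of the alternative pathway convertase (chromosome X, 20925454 to 20931555, minus strand), and rose with IL-6 beside either cytokine. It measured 285.4, 299.6 and 288.1 CPM in control, 324.3, 319.9 and 333.8 with IL-4, 422.4, 551.6 and 410.0 with IL-4/IL-6, 285.3, 251.9 and 243.3 with IL-13, and 383.6, 365.2 and 411.5 with IL-13/IL-6. The IL-6 libraries were above all libraries without IL-6. The rise was 1.42-fold beside IL-4 (0.50 ± 0.0938, adjusted p = 0.000339) and 1.49-fold beside IL-13 (0.57 ± 0.0941, adjusted p = 0.000163). Without IL-6, Cfp was lower with IL-13 than with IL-4 (-0.33 ± 0.0939, adjusted p = 0.0301). That call was lost in 5 of 6 fits without 1 library, at adjusted p = 0.0677, 0.0579 and 0.0883 without IL-4 replicates 1, 2 and 3, and 0.113 and 0.139 without IL-13 replicates 2 and 3. In the main fit, neither cytokine alone gave a called change from control (0.16 ± 0.0938 with IL-4 and -0.16 ± 0.0939 with IL-13, adjusted p = 0.133 and 0.148). The libraries did not overlap in either comparison, and some other settings called these changes. Cfp was higher with IL-4 in an edgeR fit of control and IL-4 alone (0.20, adjusted p = 2.8e-05) and with no filter (0.24, adjusted p = 0.0062). It was lower with IL-13 by limma on log2(FPKM + 0.1) (-0.19, adjusted p = 0.0449) and by edgeR without both libraries that stood apart (-0.20, adjusted p = 0.00248).

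The receptors C3ar1 (chromosome 6, 122847138 to 122856161) and C5ar1 (chromosome 7, 16246743 to 16259540), both on the minus strand, had the smallest standard errors of all members. Their promoters are shown because the receptors followed each other across groups (log2 levels, Pearson correlation 0.9 over 15 libraries) from different chromosomes, and neither window holds any of the 5 motifs (RefSeq, GRCm38.p6).
C3ar1 promoter, chr6:122856108-122856407, minus strand: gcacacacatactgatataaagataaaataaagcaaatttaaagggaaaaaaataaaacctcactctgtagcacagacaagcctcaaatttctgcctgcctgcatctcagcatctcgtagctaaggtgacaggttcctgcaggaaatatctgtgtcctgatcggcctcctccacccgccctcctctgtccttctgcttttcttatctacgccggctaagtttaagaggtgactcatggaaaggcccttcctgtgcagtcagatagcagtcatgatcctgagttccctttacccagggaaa
C5ar1 promoter, chr7:16259289-16259588, minus strand: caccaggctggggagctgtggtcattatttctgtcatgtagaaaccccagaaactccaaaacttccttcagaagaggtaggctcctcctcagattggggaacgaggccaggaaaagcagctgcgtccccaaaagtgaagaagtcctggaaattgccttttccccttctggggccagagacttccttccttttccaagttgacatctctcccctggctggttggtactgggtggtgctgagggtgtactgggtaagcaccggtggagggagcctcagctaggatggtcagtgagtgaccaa

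C3ar1, the receptor of C3a, formed a high and a low set of groups. It measured 843.7, 863.9 and 858.3 CPM in control, 1191.1, 1189.5 and 1199.7 with IL-4, 835.6, 835.2 and 865.0 with IL-4/IL-6, 1170.3, 1345.1 and 1188.9 with IL-13, and 1330.2, 1285.6 and 1283.5 with IL-13/IL-6. The IL-4, IL-13 and IL-13/IL-6 libraries were all above the control and IL-4/IL-6 libraries, which overlapped. C3ar1 rose 1.40-fold with IL-4 (0.48 ± 0.0569, adjusted p = 1.08e-06) and 1.44-fold with IL-13 (0.53 ± 0.0569, adjusted p = 4.49e-07). It fell by 0.50 ± 0.0569 on the log2 scale when IL-6 was added to IL-4 (adjusted p = 1.6e-06) and changed by 0.07 ± 0.0567 when IL-6 was added to IL-13 (adjusted p = 0.396). From control to IL-4/IL-6 it changed by -0.02 ± 0.0568 (adjusted p = 0.799), and on the FPKM scale, where the median of all genes is shifted by -0.15 in this comparison, by -0.16, which was called.

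C5ar1, the receptor of C5a, separated all 5 groups without overlap. Its levels were 240.6, 249.4 and 232.0 CPM in control, 312.6, 309.2 and 321.2 with IL-4, 189.7, 205.9 and 185.4 with IL-4/IL-6, 525.2, 494.3 and 495.0 with IL-13, and 594.6, 551.5 and 596.9 with IL-13/IL-6. The order from high to low was IL-13/IL-6, IL-13, IL-4, control and IL-4/IL-6 in both CPM and FPKM. With IL-13 it rose 2.1-fold over control (1.07 ± 0.0599, adjusted p = 1.19e-10) and with IL-4 1.31-fold (0.39 ± 0.0595, adjusted p = 2.3e-05), so that at the doses used the IL-13 level was 1.61-fold the IL-4 level (0.68 ± 0.0595, adjusted p = 4.5e-07). IL-6 lowered it by 0.70 ± 0.0599 on the log2 scale beside IL-4 (adjusted p = 4.43e-08) and raised it by 0.20 ± 0.0591 beside IL-13 (adjusted p = 0.0166). The rise beside IL-13 was lost without IL-13 replicates 2 or 3 (adjusted p = 0.0696 and 0.0772) and without IL-13/IL-6 replicates 1 or 3 (0.0804 and 0.0845). Between the combinations C5ar1 was 3.00-fold higher with IL-13/IL-6 than with IL-4/IL-6 (1.59 ± 0.0608, adjusted p = 1.07e-11).

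In FPKM, C3ar1 exceeded C5ar1 by a ratio of 2.12 ± 0.0748 (SD, n = 3) in control, 2.27 ± 0.0342 with IL-4 and 2.61 ± 0.182 with IL-4/IL-6, but by 1.46 ± 0.149 with IL-13 and 1.34 ± 0.054 with IL-13/IL-6. The ratios of the IL-13 groups (1.28 to 1.62) lay below those of the other groups (2.07 to 2.79).

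**Figure D3:**
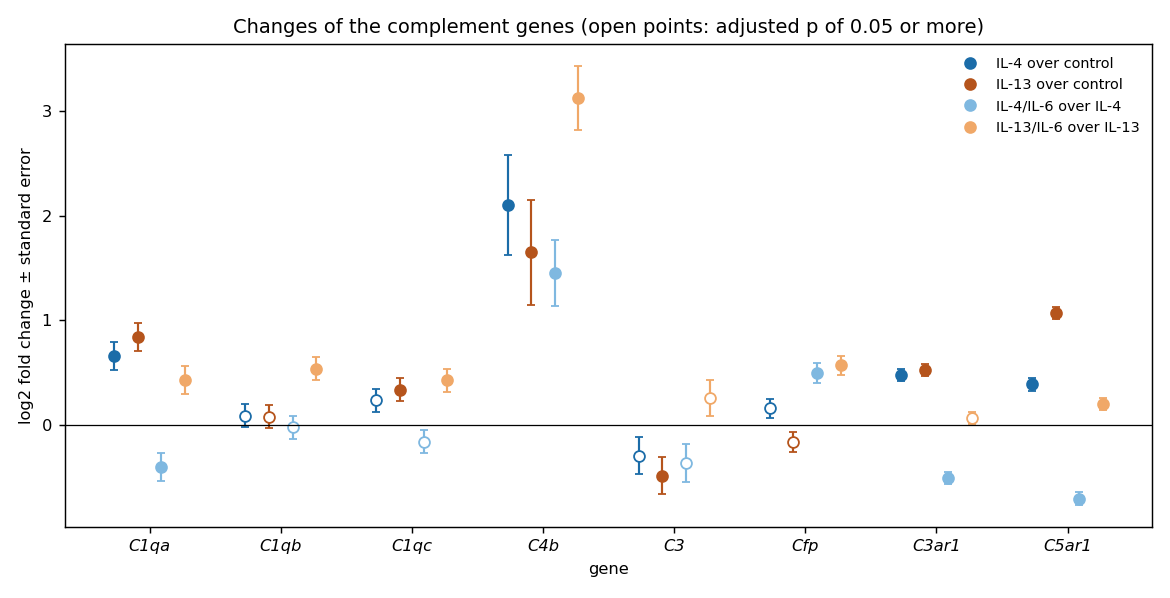
Log2 fold changes ± standard error of 8 complement genes in 4 comparisons, with filled points where the adjusted p was under 0.05. C4b has the largest values in all 4 comparisons, and where IL-6 was added to IL-4, C4b and Cfp lie above 0 and the other 6 genes below it, with filled points for C1qa, C3ar1 and C5ar1.

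Across the members, IL-4 alone raised 4 of 8 tested genes (C1qa, C4b, C3ar1 and C5ar1) and lowered 0, beside 32.1% of all tested genes called higher and 35.9% called lower. The count of 0 lower members by edgeR was also 0 at an unadjusted p under 0.05, by DESeq2 and by limma on the FPKM values, and 1 (C3) in a fit of the control and IL-4 libraries alone, which also called 7 members higher. The median log2 fold change of the members was 0.31 and that of all genes -0.05. IL-13 alone raised 5 of 8 (the same 4 and C1qc) and lowered 1 (C3), beside 29.0% and 31.1% of all genes, with medians of 0.43 for the members and -0.02 for all genes. Both comparisons used the same control libraries. IL-13 against IL-4 had 1 member higher (C5ar1) and 1 lower (Cfp), beside 7.61% and 5.16% of all genes, with a median of 0.02 for the members and for all genes.

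Adding IL-6 to IL-4 raised 2 members (C4b and Cfp) and lowered 3 (C1qa, C3ar1 and C5ar1), beside 20.7% of all genes called higher and 18.7% called lower, with medians of -0.26 for the members and 0.04 for all genes. The split of all calls depended on the scaling: 52.6% of the called genes were higher with TMM, 39.0% with upper-quartile normalization and 37.3% on the log2(FPKM + 0.1) scale. Adding IL-6 to IL-13 raised 6 members (C1qa, C1qb, C1qc, C4b, Cfp and C5ar1) and lowered 0 (also 0 at an unadjusted p under 0.05, by DESeq2 and by limma), beside 12.1% and 13.5% of all genes, with medians of 0.43 and 0.01. Here 47.3% of the called genes were higher with TMM and 36.1% on the log2(FPKM + 0.1) scale. Without IL-13 replicate 2 or 3, or without IL-13/IL-6 replicate 1 or 3, 4 members were called higher. With IL-4/IL-6 replicate 2 and IL-13 replicate 1 both left out, 5 members were called lower beside IL-4 (C1qb and C1qc in addition) and 6 higher beside IL-13.

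Against control, IL-4/IL-6 had 2 members higher (C4b and Cfp) and 2 lower (C3 and C5ar1), beside 35.4% and 37.5% of all genes, with medians of 0.08 for the members and -0.05 for all genes. IL-13/IL-6 had 7 members higher, all but C3, and 0 lower (also 0 at an unadjusted p under 0.05, by DESeq2 and by limma, and 1, C3, without IL-13/IL-6 replicate 3), beside 31.9% and 32.1% of all genes, with medians of 0.69 for the members and -0.01 for all genes. These 7 were called in each of the fits that left out 1 library. When the combinations were compared with each other, 6 members were higher with IL-13/IL-6 (the C1q chains, C4b, C3ar1 and C5ar1), beside 15.5% of all genes, and 1 was lower (Cfp, -0.25 ± 0.0936, adjusted p = 0.048), beside 15.8%. Of the 8 macrophage markers 6 were also higher with IL-13/IL-6, and the part of this in the members' differences was not tested. The lower level of Cfp was not called without IL-4/IL-6 replicate 2 (-0.11, adjusted p = 0.275), without IL-13/IL-6 replicate 1 (-0.24, adjusted p = 0.111) or without IL-13/IL-6 replicate 2 (-0.21, adjusted p = 0.181).

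Whether IL-6 acted differently beside IL-13 than beside IL-4 was tested directly as the difference of the IL-6 effects, which come from separate libraries. This difference was above 0 for 6 of 8 members, beside 4.42% of all genes, and below 0 for 0 members (also 0 at an unadjusted p under 0.05, by DESeq2 and by limma), beside 3.22%. The members had a median difference of 0.60 and all genes of -0.02 on the log2 scale. C5ar1 had a difference of 0.90 ± 0.0841 (adjusted p = 3.08e-06) and C3ar1 of 0.57 ± 0.0803 (adjusted p = 0.00017). The C1q chains followed with 0.82 ± 0.189 for C1qa (adjusted p = 0.0106), 0.59 ± 0.156 for C1qc (adjusted p = 0.0261) and 0.55 ± 0.152 for C1qb (adjusted p = 0.0322). C4b had 1.67 ± 0.459 (adjusted p = 0.0321). The differences for C3 (0.62 ± 0.25, adjusted p = 0.176) and Cfp (0.07 ± 0.132, adjusted p = 0.864) were not called, and for Cfp the IL-6 effects beside IL-4 and IL-13 were both positive.

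The calls for C1qa, C3ar1 and C5ar1 were kept in all 12 fits without 1 library, that for C1qc in 7, that for C4b in 7 and that for C1qb in 3. The number of members called fell from 6 to 3 without IL-4/IL-6 replicate 1, without IL-13 replicate 3 or without IL-13/IL-6 replicate 3, and to 4 without IL-4 replicate 1, without IL-13 replicate 2 or without IL-13/IL-6 replicate 1. The difference for C4b was 1.08 without IL-4 replicate 1 (adjusted p = 0.2). Without both libraries that stood apart 7 members were called, with Cfp in addition (0.30 ± 0.0746, adjusted p = 0.00655). Of the called genes, 57.8% were above 0 with TMM and 68.3% with upper-quartile normalization. Ltf, Ngp and S100a9 averaged 0.181 CPM or less in all 4 groups of this comparison, but the granulocyte marker Csf3r averaged 40.9 CPM with IL-4, 124.0 with IL-4/IL-6, 27.7 with IL-13 and 57.4 with IL-13/IL-6. The difference of the IL-6 effects was called below 0 for 1 of 10 granulocyte markers and above 0 for 2 of 8 macrophage markers. The part of these markers in the members' differences was not tested.

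**Figure D4:**
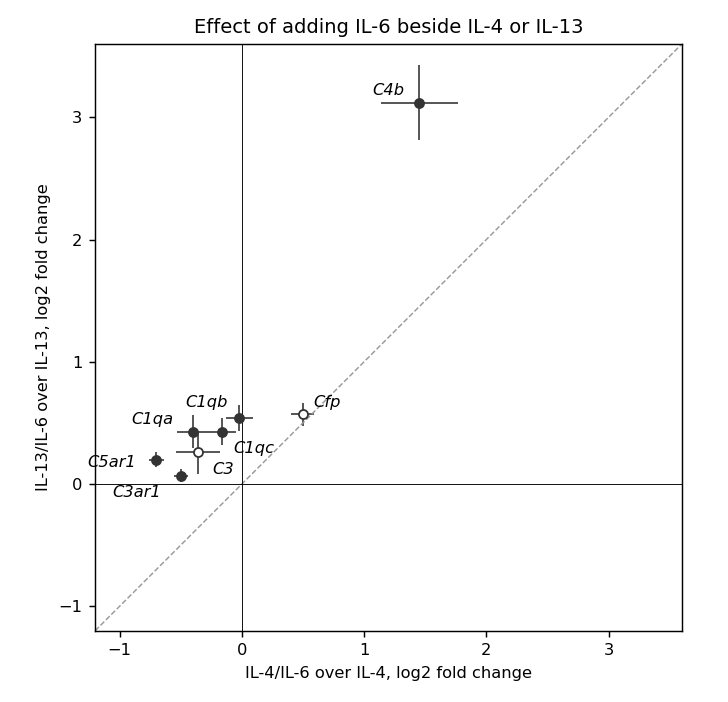
Log2 fold change on adding IL-6 to IL-4 (horizontal axis) against that on adding IL-6 to IL-13 (vertical axis) for 8 complement genes, with bars for standard errors, a dashed line of equal effects and filled points where the difference was called. All 8 points lie above the line, with Cfp closest to it at 0.50 and 0.57.

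Of 42 further genes of the complement system, 18 passed the filter. In the initiating part, C1ra, a protease of the C1 complex, rose with IL-4 (0.50 ± 0.136, adjusted p = 0.004) and with IL-13 (0.34 ± 0.138, adjusted p = 0.0444), and again when IL-6 was added to IL-13 (0.49 ± 0.131, adjusted p = 0.0102). When IL-6 was added to IL-4, C1ra changed by 0.30 ± 0.13 and was not called (adjusted p = 0.0779). The difference of these IL-6 effects was not called either (0.18 ± 0.185, adjusted p = 0.701). Fcna, a ficolin of the lectin pathway, fell by 0.60 ± 0.149 and 0.56 ± 0.143 on the log2 scale when IL-6 was added to IL-4 and to IL-13 (adjusted p = 0.00367 and 0.00703). Fcnb, another ficolin, had 92 to 127 counts in control and 0 in every treated library, at least 33.8-fold lower in each treated group against a floor of 3 counts per library. The granulocyte markers were also lower in every treated group, and their part in the Fcnb result was not tested. Apart from C4a, the other initiating genes, among them C2, Masp1 and Cfd, had at most 11 counts in any library.

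The terminal genes, which encode the membrane attack complex, were nearly silent. Hc (C5), C6, C7, C8a, C8b and C9 had at most 3 counts in any library, and only C8g was tested, with 64 to 94 counts in control and 13 to 45 in treated libraries. It fell with IL-4 and IL-13 (-1.34 ± 0.286 and -0.97 ± 0.276, adjusted p = 0.000552 and 0.00619). Of 6 tested regulators, 0 were higher and 4 lower than control with IL-4, beside 32.1% and 35.9% of all genes. With IL-13 0 were higher and 3 lower, beside 29.0% and 31.1%. Against control 1 was higher and 2 lower both with IL-4/IL-6 (beside 35.4% and 37.5%) and with IL-13/IL-6 (31.9% and 32.1%). IL-6 raised 2 and lowered 0 beside IL-4, where 20.7% of all genes rose and 18.7% fell. It also raised 2 and lowered 0 beside IL-13, where 12.1% rose and 13.5% fell. Cd55, which accelerates convertase decay, fell from control with IL-4 and with IL-13 (-2.85 ± 0.476 and -1.83 ± 0.417, adjusted p = 5.1e-05 and 0.00112). It rose on adding IL-6 to IL-4 and to IL-13 (2.27 ± 0.505 and 2.15 ± 0.408, adjusted p = 0.00155 and 0.000635) on 1 to 42 counts. Neither IL-4/IL-6 nor IL-13/IL-6 was then called against control (-0.58 ± 0.368 and 0.32 ± 0.341, adjusted p = 0.164 and 0.43). Clu, an inhibitor of the terminal complex, had 173 to 206 counts in control and 0 to 5 in treated libraries. Cr1l, a membrane regulator of convertases, was called in none of the 9 comparisons. Cd46 had 3 to 27 counts and Cd59a, which blocks assembly of the membrane attack complex, 89 to 165, and neither was called on adding IL-6. Against control, Cd46 was lower with IL-4 and IL-13/IL-6 (-1.92 ± 0.447 and -1.28 ± 0.417, adjusted p = 0.00112 and 0.0127). It was not called with IL-13 or IL-4/IL-6 (-0.88 ± 0.397 and -0.89 ± 0.402, adjusted p = 0.0658 and 0.0561). Cd59a was called lower than control with IL-4/IL-6 only (-0.39 ± 0.135, adjusted p = 0.0152).

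Of 7 tested receptors of complement proteins, IL-6 changed Itgb2, Itgax, C5ar2, Itgam and Cd93. Itgb2, the beta chain of complement receptors 3 and 4, had 27316 to 29492 counts with IL-4 and 7990 to 8805 with IL-4/IL-6, and 26488 to 29659 with IL-13 and 11771 to 13850 with IL-13/IL-6. It fell by 1.66 ± 0.0561 and 1.05 ± 0.0552 on the log2 scale (adjusted p = 2.84e-13 and 1.61e-10). Itgax, the alpha chain of complement receptor 4, fell by 2.68 ± 0.0909 and 1.80 ± 0.0884 (adjusted p = 3.03e-13 and 7.12e-11). Itgam, the alpha chain of complement receptor 3, fell by 0.31 ± 0.0647 beside IL-4 and rose by 0.35 ± 0.0644 beside IL-13 (adjusted p = 0.000972 and 0.000441), and Cd93, once described as a C1q receptor, fell by 0.40 ± 0.117 and rose by 0.33 ± 0.115 (adjusted p = 0.0104 and 0.0444). C5ar2, the second C5a receptor, fell with IL-6 in both settings (-1.28 ± 0.141 and -0.59 ± 0.125, adjusted p = 1.04e-06 and 0.00171). Against control, Cd93 was lower with IL-4 and IL-13 (-2.03 ± 0.12 and -0.84 ± 0.116, adjusted p = 1.55e-10 and 7.78e-06). It was also lower with IL-4/IL-6 and IL-13/IL-6 (-2.43 ± 0.122 and -0.51 ± 0.115, adjusted p = 1.04e-11 and 0.000871). Itgb2 changed from control by 0.31 with IL-4, 0.25 with IL-13, -1.35 with IL-4/IL-6 and -0.79 with IL-13/IL-6. Itgax changed by 0.20, -0.52, -2.48 and -2.31 in the same order, and all these changes were called. C1qbp, a mitochondrial protein known to bind C1q, rose with IL-4 (1.86 ± 0.148, adjusted p = 7.21e-09) and IL-13 (1.47 ± 0.147, adjusted p = 1.85e-07). Vsig4, a receptor of C3 fragments, had 41 to 49 counts in control and 0 to 2 in treated libraries, at least 14.4-fold lower in each treated group.

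Of these 18 genes, 4 were higher and 8 lower than control with IL-4, beside 32.1% and 35.9% of all genes. With IL-13 5 were higher and 8 lower, beside 29.0% and 31.1%. With IL-4/IL-6 3 were higher and 11 lower (35.4% and 37.5%), and with IL-13/IL-6 4 and 8 (31.9% and 32.1%). Their median log2 fold changes against control were -0.13, -0.20, -0.74 and -0.17 in the same order. Those of all genes were -0.05, -0.02, -0.05 and -0.01. IL-6 raised 2 and lowered 6 of the 18 beside IL-4, where 20.7% of all genes rose and 18.7% fell. It raised 5 and lowered 4 beside IL-13, where 12.1% rose and 13.5% fell. The difference of the IL-6 effects was above 0 for 5 of them (C5ar2, Itgam, Itgax, Itgb2 and Cd93, all receptors) and below 0 for 0, beside 4.42% and 3.22% of all genes. Their median difference was 0.14 against 0.60 for the 8 members and -0.02 for all genes.

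**Figure D5:**
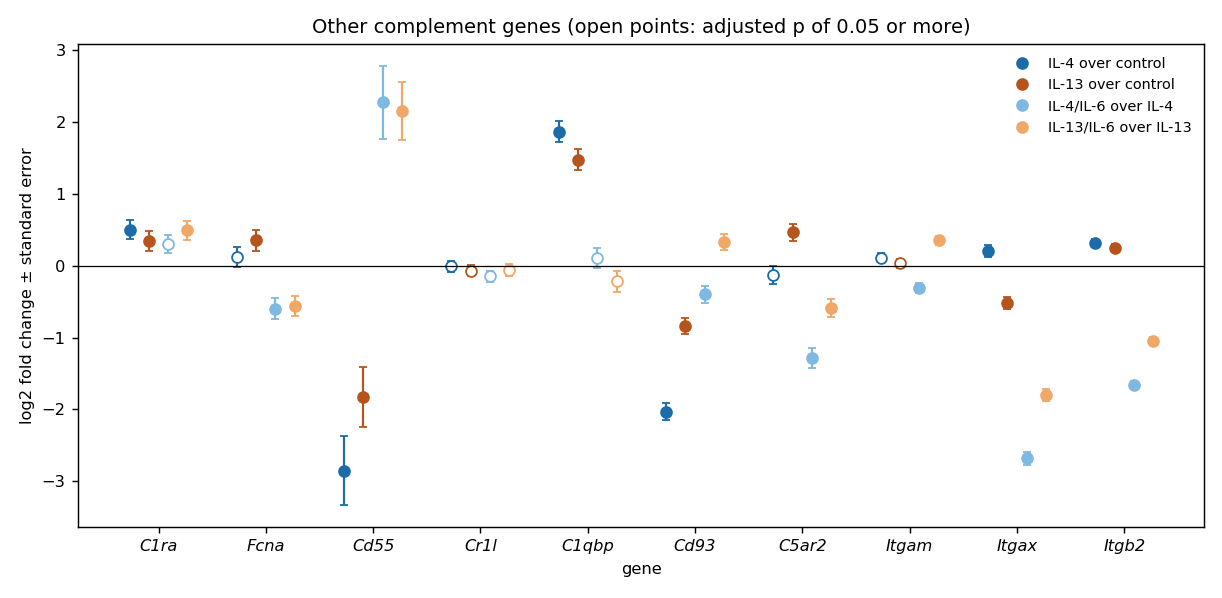
Log2 fold changes ± standard error of 10 further complement genes in 4 comparisons, with filled points where the adjusted p was under 0.05. Itgax and Itgb2 lie below 0 and Cd55 above 0 where IL-6 was added to IL-4 or to IL-13.

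The genes with the most similar pattern were taken for each member from 9825 tested genes with a mean of 5 CPM or more, by the Pearson correlation of log2 CPM over the 15 libraries. They were Actb (0.949) for C1qa, Ccl6 (0.935) for C1qb, Hmox2 (0.942) for C1qc, Glb1l (0.834) for C3, Igf2bp2 (0.978) for C4b, Ech1 (0.977) for Cfp, Asph (0.971) for C3ar1 and Folr2 (0.959) for C5ar1. The next genes were Mid1ip1 (0.93) and Txnip (0.916) for C1qa, Gm3571 (0.93) and Hmox2 (0.914) for C1qb, Ier5 (0.908) and Mid1ip1 (0.897) for C1qc, Rnf114 (0.829) and Mgrn1 (0.816) for C3, Itgb1 (0.961) and Hsp90b1 (0.958) for C4b, Eef1a1 (0.969) and Cryzl1 (0.96) for Cfp, Rgs18 (0.968) and Bcl6 (0.968) for C3ar1, and Fnbp1l (0.959) and Apbb1ip (0.958) for C5ar1. These correlations describe 15 libraries in 5 groups.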

How the data were processed

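RNA was sequenced from 15 libraries of BMDMs. The authors deposited a table of gene counts (whole reads per Ensembl gene, not normalized) and a table of FPKM, which were the counts scaled to gene length and to the total of the library, as checked on 175998 values. The submitters' processing notes name CASAVA, Bowtie2 2.2.3, HISAT2 2.1.0, TopHat2, DESeq2 and GRCm38. The counting tool, its treatment of shared exons and strand are not given in the sources used here. The 27385 genes without FPKM had 0 counts in all libraries.

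Counts were tested with edgeR 4.0.16 (R 4.3.3): filterByExpr with a minimum count of 10, TMM normalization and the quasi-likelihood test, in 1 fit of all 15 libraries with a mean for each group, 9 comparisons, and Benjamini-Hochberg adjustment over the 13938 genes tested at 0.05. Standard errors are the fold change over the root of the F statistic. The procedure was tested on simulated data. The alternatives were DESeq2 1.42.0, RLE and upper-quartile normalization, no filter, a replicate block, fits of the compared groups alone, limma 3.58.1 on log2(FPKM + 0.1) and log2(FPKM + 1), and each library left out in turn. Leaving out both libraries that stood apart was added after seeing the data. A level of 0 was bounded by a floor of 3 counts per library, which covers counting error only.

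The genes named were the 9 members, 42 other complement genes (values for those with a mean of 1 CPM or more in a group, others by their range, and 1 gene of this list not reported here), for each member the 3 genes with the highest Pearson correlation, genes for checking the labels, and markers of 9 cell classes. The members and lists were chosen with earlier results of these data known. Same-numbered replicates were not paired by the labels, and their deviations from group means had correlations of -0.276 to 0.163, so that the block was not used in the main test.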

Additional observations from a re-analysis of the deposited data

Results flagged for a closer look

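For 6 of 8 members the change on adding IL-6 differed between macrophages given IL-13 and macrophages given IL-4, by the test of that difference itself (edgeR's quasi-likelihood test, adjusted over all 13938 genes), beside 4.42% of all genes called above 0 and 3.22% below 0. The difference, as the log2 fold change beside IL-13 minus that beside IL-4, was 0.82 for C1qa, 0.55 for C1qb, 0.59 for C1qc, 1.67 for C4b, 0.57 for C3ar1 and 0.90 for C5ar1. In fits that left out 1 library 3 to 6 members were called: C1qa, C3ar1 and C5ar1 in all 12, C1qc and C4b in 7 each and C1qb in 3. The IL-6 effects had opposite signs and were both called for C1qa and C5ar1 in the main fit. Without 1 library, the fall of C1qa beside IL-4 was called in 3 of 6 fits and its rise beside IL-13 in 2 of 6. For C5ar1 the fall beside IL-4 was called in 6 of 6 and the rise beside IL-13 in 2 of 6. For C4b both IL-6 effects were positive. IL-4 and IL-13 were given at different doses, so that the kind of cytokine and its dose cannot be told apart.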

How the results depend on the processing

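Of the 72 member tests, all kept their direction and side of the threshold with DESeq2 and with RLE size factors. IL-4 against control had 7 members higher with no filter and in a fit of the compared groups alone, where 1 was lower. IL-13 against control had 2 members lower on both FPKM scales and without both libraries that stood apart. IL-4/IL-6 against IL-4 had 5 lower with no filter and without both. IL-13/IL-6 against IL-4/IL-6 had 0 lower with upper-quartile normalization, the compared groups alone (where 1326 of all genes were lower), both FPKM scales and without both. IL-13 against IL-4 had 1153 genes lower with no filter, and 2519 higher and 2213 lower without both. The difference of IL-6 effects had 1290 genes above and 1224 below 0 without both. The cause of these shifts was not tested.

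Without 1 library each, members lower ranged over 0 to 1 for IL-13 against control, IL-13/IL-6 against control, IL-13 against IL-4 and IL-13/IL-6 against IL-4/IL-6, and 2 to 4 for IL-4/IL-6 against IL-4. Members higher ranged over 4 to 6 for IL-13/IL-6 against IL-13 and 3 to 6 for the difference of IL-6 effects. All genes ranged over 644 to 1623 higher and 444 to 1292 lower for IL-13 against IL-4, and 489 to 798 above and 293 to 607 below 0 for the difference of IL-6 effects.

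Values that changed sign were not called in either setting. For IL-4/IL-6 against control they were C3ar1 at 0.03 with no filter, 0.01 and 0.02 without IL-4/IL-6 replicates 1 and 2 and 0.02 without both, and C1qb and C1qc at -0.08 on both FPKM scales, and -0.06 and -0.05 without IL-4/IL-6 replicate 2 and without both. Without 1 library each, these 3 ranged over -0.04 to 0.02 (C3ar1), -0.06 to 0.17 (C1qb) and -0.05 to 0.20 (C1qc). The others, over the same kind of fits, were C1qb at -0.19 to 0.07 for IL-4/IL-6 against IL-4, C3 at -0.05 to 0.39 for IL-13/IL-6 against IL-13, and, for IL-13 against IL-4, C4b at -0.73 to 0.15, C1qb at -0.13 to 0.05 and C3ar1 at -0.01 to 0.08.

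Same-numbered replicates did not deviate together (median correlation -0.008, 3 of 30 pairs of libraries above 0.1, 7 of 30 highest with their own number). The largest correlation between libraries of different groups was 0.393, between IL-4/IL-6 replicate 2 and IL-13 replicate 1, which both stood apart. Each of them was the highest library of its group for C1qa, C1qb, C1qc and Cfp in CPM. The cause of this shared deviation was not tested. With the replicate block the call for Cfp between IL-13/IL-6 and IL-4/IL-6 (-0.25, adjusted p = 0.0727, with 0 members then lower) and that for the C4b difference (1.67, adjusted p = 0.0526) were lost, and the other 70 of 72 were kept. The order of group means was different in CPM than in FPKM for C1qb and C1qc. By Spearman correlation none of the 3 most similar genes of C1qa, C1qb, C3ar1 and C5ar1 was among the 3 highest. Depth limited C4b, with 3 to 6 counts in control, and Cfb.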
